A study of Mus musculus with 9 samples.

Results

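The ubiquitin-editing and adaptor regulators of NF-kB signalling described here are the 10 genes Tnfaip3, Cyld, Tnip1, Tnip2, Traf1, Traf2, Traf3, Birc2, Birc3 and Map3k14, chosen by gene symbol among the 35673 symbols of a table of read counts. All 10 were found, and all 10 passed the filter on low counts, which left 21341 genes for testing. The counts come from bulk RNA sequencing of mouse basophils, rare granulocytes of type 2 inflammation, grown from wild-type C57BL/6J bone marrow with interleukin-3 (IL-3) at 0.3 ng/mL over 7 days and taken by magnetic selection of CD49b-positive cells. Each library was made from 10000 cells after 4 hours in culture, and there were 3 libraries for each of 3 conditions. Difamilast cells were given 3 µM difamilast together with 10 ng/mL IL-3 and 10 ng/mL IL-33; difamilast is an inhibitor of phosphodiesterase 4, the enzyme that degrades cAMP in immune cells. Stimulated cells received the same cytokines with the vehicle DMSO, and resting cells received PBS with DMSO. Difamilast in cells without the cytokines was not analysed here, and whether the replicates of a group are separate cultures or mice is not given in the sources used here, so the spread that the p-values measure is that of these libraries and may be technical.

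Receptors of the IL-1 and tumour necrosis factor (TNF) families, the IL-33 receptor ST2 among them, signal through chains of ubiquitin that are built on adaptor proteins and that recruit the kinases which release NF-kB. A20, encoded by Tnfaip3, and CYLD dismantle or remodel such chains, and ABIN-1 and ABIN-2 (Tnip1, Tnip2) bind both ubiquitin and A20. TRAF2 and TRAF3 join the ubiquitin ligases cIAP1 and cIAP2 (Birc2, Birc3) into a complex that degrades the kinase NIK (Map3k14) in unstimulated cells, which keeps the noncanonical NF-kB pathway off. TRAF1 has no RING domain of its own and binds TRAF2 and the cIAPs. Tnfaip3, Traf1 and Birc3 are textbook NF-kB target genes, so that the pathway induces some of its own regulators.

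Library totals ran from 6261446 counts in resting replicate 3 to 38098584 in stimulated replicate 2, and the members had between 101 (Tnip2, stimulated replicate 1) and 48636 counts (Traf1, stimulated replicate 2) in a library. Basophil markers were present: all 12 of a list that holds Mcpt8, Fcer1a, Cd200r3, Gata2 and Hdc averaged above 1 CPM (counts scaled to a common library size with TMM factors) in each group, and by the test used below 8 of the 12 were higher and 1 lower in stimulated than in resting cells. Their summed level ran from 14988 to 15679 CPM in difamilast, 13256 to 14110 in stimulated and 7330.4 to 8446 in resting libraries. Markers of monocytes and macrophages, 12 of 12 of which were also above 1 CPM, summed to 4562 to 4948 CPM in difamilast, 4761 to 5046 in stimulated and 6118 to 7645 in resting libraries, and 8 of the 12 were lower and 1 higher in stimulated than in resting cells by that test. The part of either list in the results was not tested. In bulk samples fewer cells of a type and less RNA per cell cannot be told apart. Dendritic cell markers summed to 1879 to 1999.8 CPM in difamilast, 1710.1 to 1818 in stimulated and 1538 to 1930.2 in resting libraries, and erythroid and megakaryocyte markers to 301 to 358 CPM in difamilast, 247 to 300.2 in stimulated and 399 to 612 in resting libraries. Neutrophil markers summed to at most 261 CPM, eosinophil markers to at most 64.1, and NK, T and B cell markers to at most 58.1. Of 7 mast cell markers, Mrgprb2 had no count in stimulated libraries and at least 3 averaged under 1 CPM in each group. Others were well above that: Tpsb2 averaged 513 CPM in difamilast, 561 in stimulated and 442 in resting libraries. In the same order Cma1 averaged 162, 181 and 155 CPM, and Kit 31.3, 40.8 and 61.5 CPM.

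Set per kilobase of the longest coding transcript, so that genes can be compared with each other, the regulators spanned a wide range of levels. In difamilast libraries Traf1 was highest at 352 ± 63.4 CPM per kilobase (SD, n = 3), followed by Tnfaip3 at 287 ± 11.4, Birc3 at 65.8 ± 2.2, Tnip1 at 43.3 ± 2.23, Traf2 at 24.0 ± 2.33 and Cyld at 15.9 ± 0.721, and Tnip2 was lowest at 3.7 ± 0.0614. In stimulated libraries the same 6 genes led in the same order, with Traf1 at 381 ± 36.5 and Tnfaip3 at 213 ± 16 CPM per kilobase, and Tnip2 was again lowest at 4.33 ± 0.431. In resting libraries Tnfaip3 led at 69.8 ± 13.8 CPM per kilobase, above 96.2% of the genes tested with a known length, and Tnip1, Birc3 and Traf1 followed at 25.6 ± 3.46, 24.4 ± 5.77 and 23.2 ± 3.16. The ranges of those 3 overlapped in resting cells, each with the next. Further down, ranges also overlapped in resting cells for neighbours among Birc2, Traf2 and Cyld (12.9 ± 1.97, 11.2 ± 1.68 and 9.19 ± 0.23) and for Map3k14 (4.05 ± 0.764) and Traf3 (3.57 ± 0.747). The same held for neighbours among Birc2, Traf3 and Map3k14 (8.57 ± 0.376, 7.74 ± 0.508 and 6.8 ± 0.781) in stimulated cells, and for Map3k14 and Birc2 (10.1 ± 1.16 and 10.1 ± 0.16) in difamilast cells. Overlapping ranges do not show equal levels, since all genes were read in the same libraries. Within every resting library Birc2 was above Traf2, Traf2 above Cyld and Map3k14 above Traf3. Within every stimulated library Birc2 was above Traf3 and Traf3 above Map3k14. Per kilobase, Tnfaip3 was the leading transcript of the 10 at rest, and Traf1 stood above it with the cytokines, with and without the inhibitor. In difamilast libraries that order rests on the division by length. In CPM, Tnfaip3 averaged 1268 ± 50.6 and Traf1 1208 ± 218 there (SD, n = 3 each), and their libraries overlapped. Whether counts scale with transcript length in these libraries was not tested.

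**Figure D1:**
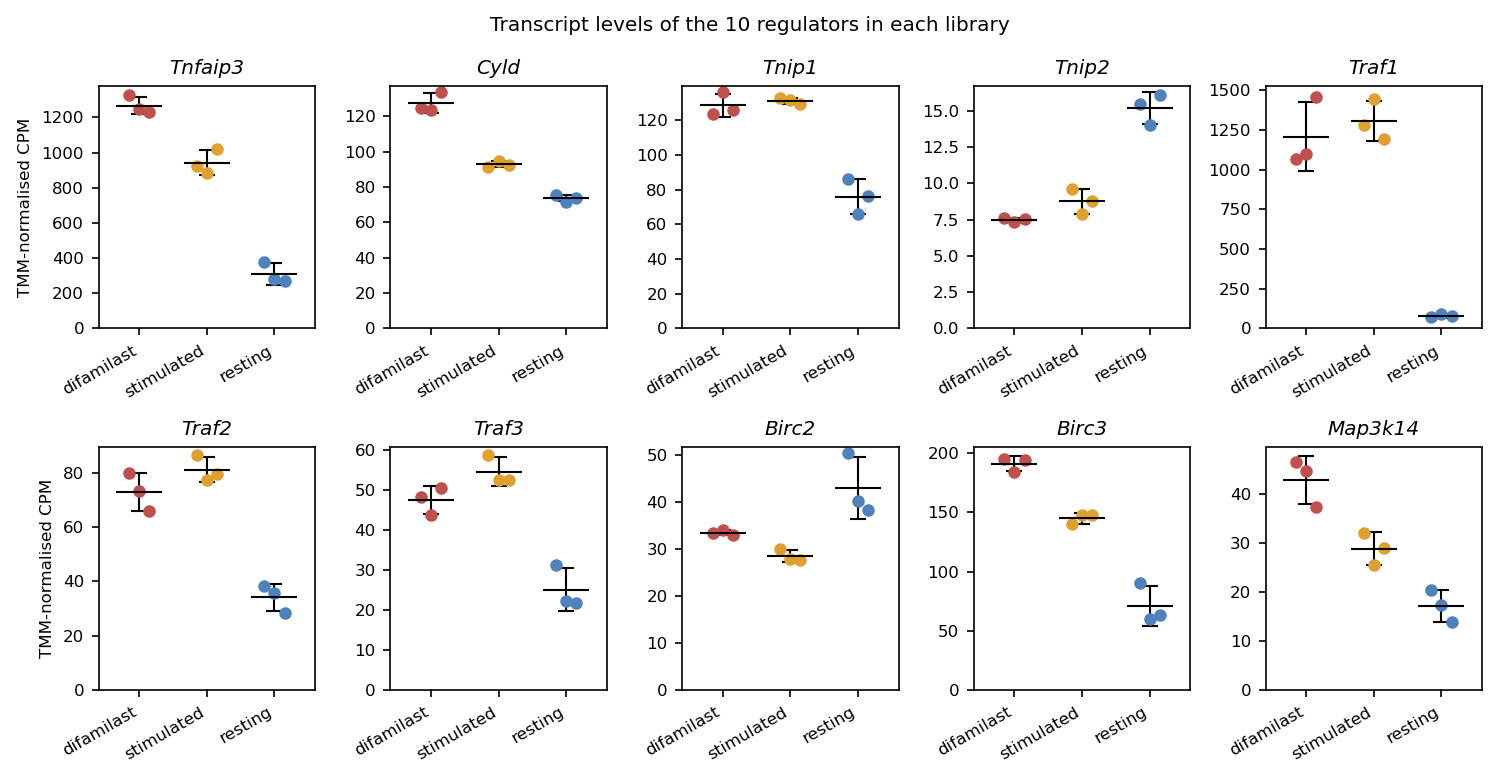
TMM-normalised CPM of the 10 regulators in each library (points; horizontal bars and whiskers are means ± SD of 3 libraries), with difamilast, stimulated and resting libraries from left to right and each axis starting at 0. Traf1 is at 1066 CPM or more in every difamilast and stimulated library and at 91.8 or less in resting libraries, Tnip2 and Birc2 are highest in resting libraries, and Tnfaip3, Cyld, Birc3 and Map3k14 step up across resting, stimulated and difamilast libraries without overlap.

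Stimulated and resting cells, both in vehicle, differ by the cytokines IL-3 and IL-33, and the question was how these regulators responded to them. Of the 10, 8 rose and 2 fell at a Benjamini-Hochberg adjusted p of 0.05 over all 21341 genes (quasi-likelihood test, edgeR), against a background of 31.7% of all genes called (15.3% higher and 16.4% lower). In all 10 the CPM of stimulated and resting libraries did not overlap, which held for 43.7% of all genes. These CPM rest on TMM factors of 1.23 to 1.32 in resting and 0.871 to 0.892 in stimulated libraries. As shares of raw totals, the groups overlapped for Tnip1 and Map3k14. Tnip1 had 3992 of 35451077 counts in stimulated replicate 3 and 1234 of 10838055 in resting replicate 1, a lower share with stimulation. Map3k14 had 860 of 38098584 in stimulated replicate 2 and 292 in resting replicate 1, again a lower share. The median log2 fold change of the 10 was 0.91, beside 0.06 over all genes tested. The deubiquitinase, TRAF and NIK genes rose, while in the cIAP pair Birc3 rose and Birc2 fell and in the A20-binding pair Tnip1 rose and Tnip2 fell. Resting replicate 1 was the highest resting library for Tnfaip3, Cyld, Tnip1, Traf2, Traf3, Birc2, Birc3 and Map3k14, and all 10 calls held without it.

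Among the ubiquitin-editing enzymes, Tnfaip3 had 923, 884 and 1021 CPM in stimulated libraries, against 379, 279 and 268 CPM in resting libraries. The highest resting library lay far under the lowest stimulated library. The rise was 3.05-fold (log2 fold change 1.61 ± 0.13 SE, adjusted p = 1.5e-07 in edgeR's quasi-likelihood test). Cyld had 91.4, 94.6 and 92.5 CPM in stimulated libraries, against 75.5, 71.8 and 73.8 CPM in resting libraries, narrow groups with a small gap between them. Its rise was 1.26-fold (log2 fold change 0.33 ± 0.09 SE, adjusted p = 0.0137 in edgeR). It did not pass without a filter on low counts (adjusted p = 0.0917), without resting replicate 2 (0.0741) or 3 (0.054), or without stimulated replicate 1 (0.07) or 2 (0.0577), over a range of 0.00829 to 0.0917 in the alternatives. The direction of this small rise also rests on the TMM factors, which were 1.23 to 1.32 in resting and 0.871 to 0.892 in stimulated libraries. Cyld had 961 of 11798711 counts in stimulated replicate 1 and 1080 of 10838055 in resting replicate 1, a lower share of the total with stimulation.

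The A20-binding pair parted. Tnip1 had 133, 132 and 129 CPM in stimulated libraries, against 86.3, 65.7 and 76.1 CPM in resting libraries, and rose 1.73-fold (log2 fold change 0.79 ± 0.11 SE, adjusted p = 5.71e-05 in edgeR). Tnip2, whose product ABIN-2 also stabilises the kinase TPL2, had 9.61, 7.87 and 8.79 CPM in stimulated libraries, against 15.5, 14.0 and 16.1 CPM in resting libraries. It was 1.74-fold lower (log2 fold change -0.80 ± 0.15 SE, adjusted p = 0.000929). The highest stimulated library was under the lowest resting library for Tnip2, and the reverse held for Tnip1.

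All 3 TRAF adaptor genes rose. Traf1 had 1283, 1444 and 1197 CPM in stimulated libraries, against 70.8, 91.8 and 76.5 CPM in resting libraries, the widest separation of the 10 genes. It rose 16.4-fold (log2 fold change 4.04 ± 0.15 SE, adjusted p = 4.87e-11 in edgeR), and its level per kilobase was above that of 99.2% of genes in stimulated cells and 87.1% in resting cells. Traf2 had 86.4, 77.5 and 79.4 CPM in stimulated libraries, against 38.3, 35.6 and 28.4 CPM in resting libraries. It rose 2.36-fold (log2 fold change 1.24 ± 0.13 SE, adjusted p = 2.31e-06 in edgeR). Traf3, the adaptor that brings NIK to the ligase complex, had 58.8, 52.5 and 52.7 CPM in stimulated libraries, against 31.3, 22.3 and 21.9 CPM in resting libraries. It rose 2.16-fold (log2 fold change 1.11 ± 0.14 SE, adjusted p = 2.28e-05).

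The cIAP ligase genes moved apart, although they are neighbours: on GRCm38, Birc2 lies on chromosome 9 from 7818227 to 7837064 and Birc3 from 7848699 to 7873186, both on the minus strand with 11634 bases between them. Birc3 (cIAP2) had 139.9, 148 and 148 CPM in stimulated libraries, against 90.3, 59.7 and 63.1 CPM in resting libraries, and rose 2.04-fold (log2 fold change 1.03 ± 0.14 SE, adjusted p = 3.04e-05 in edgeR). Birc2 (cIAP1) had 29.97, 27.96 and 27.7 CPM in stimulated libraries, against 50.5, 40.2 and 38.2 CPM in resting libraries, and was 1.51-fold lower (log2 fold change -0.60 ± 0.13 SE, adjusted p = 0.00195). Stimulated and resting libraries did not overlap in either gene. As paralogs they share a little sequence: 1.49% of the 50-base words of the Birc2 transcripts (68 words) also stand in transcripts of other genes, most often those of Birc3. Of the words of Birc3, 7.56% (384 words) also stand in other genes, 164 in all and most often the predicted gene Gm7019, so most of that share is not with Birc2. A small part of the counts of either gene could be exchanged with other genes. Map3k14 (NIK) had 32.2, 25.5 and 28.9 CPM in stimulated libraries, against 20.4, 17.3 and 13.9 CPM in resting libraries. It rose 1.66-fold (log2 fold change 0.73 ± 0.16 SE, adjusted p = 0.00222), and 1.31% of its words are shared with the transcript 1700028N14Rik, which overlaps 135 of its exonic bases and reached at most 29 counts in a library.

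**Figure D2:**
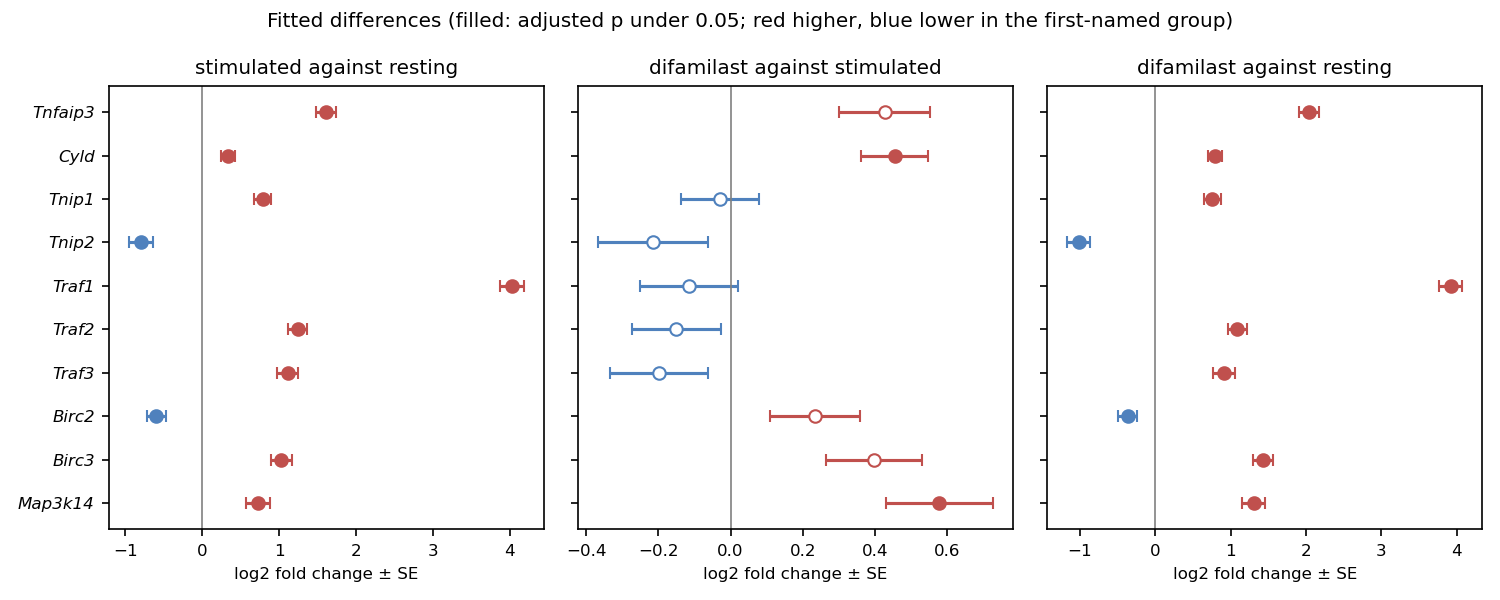
Log2 fold changes ± SE of the 10 regulators from the fit of all 9 libraries, with 1 panel for each pair of conditions (left, stimulated to resting; middle, difamilast to stimulated; right, difamilast to resting); filled points passed at an adjusted p of 0.05, and the middle axis has a narrower range. All 10 passed in the outer panels, with Tnip2 and Birc2 to the left of 0, and in the middle panel Cyld and Map3k14 passed.

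The 250 bases before each annotated start (RefSeq, GRCm38.p6) were searched on both strands for the NF-kB consensus, a motif of 10 bases. All 10 genes matched the RefSeq table, with 12 windows among them, since Tnfaip3 and Birc2 have 2 starts each. The consensus was in 4 of 12 windows, 1 each of Tnfaip3, Tnip1, Traf3 and Cyld, beside 7.25% of all 32851 windows of this length. These 4 are shown with Traf1, which had the widest change and no match; each is written 5′ to 3′ on the gene's strand, ends at the base before the start, and has the matches in capitals.
Tnfaip3 (chr10:19015411-19015660, minus strand): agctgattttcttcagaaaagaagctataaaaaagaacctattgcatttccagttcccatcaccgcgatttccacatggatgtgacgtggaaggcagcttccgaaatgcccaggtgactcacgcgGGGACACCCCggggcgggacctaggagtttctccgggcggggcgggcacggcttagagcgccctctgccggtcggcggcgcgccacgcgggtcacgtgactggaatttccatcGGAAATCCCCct
Tnip1 (chr11:54962941-54963190, minus strand): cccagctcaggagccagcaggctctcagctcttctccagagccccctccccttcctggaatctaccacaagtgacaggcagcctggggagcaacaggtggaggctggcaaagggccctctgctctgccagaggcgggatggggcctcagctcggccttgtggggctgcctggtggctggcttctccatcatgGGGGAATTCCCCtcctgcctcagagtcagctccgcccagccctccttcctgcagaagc
Traf3 (chr12:111166120-111166369, plus strand): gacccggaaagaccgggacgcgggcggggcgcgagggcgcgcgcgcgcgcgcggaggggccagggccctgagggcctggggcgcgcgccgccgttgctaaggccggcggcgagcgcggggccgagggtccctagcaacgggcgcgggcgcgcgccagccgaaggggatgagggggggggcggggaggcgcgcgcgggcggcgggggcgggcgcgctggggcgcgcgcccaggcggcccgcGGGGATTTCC
Cyld (chr8:88696778-88697027, plus strand): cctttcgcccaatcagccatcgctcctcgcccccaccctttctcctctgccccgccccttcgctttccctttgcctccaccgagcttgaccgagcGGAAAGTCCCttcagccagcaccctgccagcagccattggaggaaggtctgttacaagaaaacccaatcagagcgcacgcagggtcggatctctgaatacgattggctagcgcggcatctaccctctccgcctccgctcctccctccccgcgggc
Traf1 (chr2:34961773-34962022, minus strand): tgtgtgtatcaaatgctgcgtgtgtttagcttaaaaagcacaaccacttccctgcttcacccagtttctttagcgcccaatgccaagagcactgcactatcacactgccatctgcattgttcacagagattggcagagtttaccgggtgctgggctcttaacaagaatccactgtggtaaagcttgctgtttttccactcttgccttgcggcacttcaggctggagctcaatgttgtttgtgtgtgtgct
Tnfaip3 held matches at -125 to -116 and at -12 to -3 relative to the start, Cyld at -155 to -146 and Traf3 at -10 to -1, directly before its start. In Tnip1, 3 overlapping matches between -58 and -47 form a single run. No match stood in the other window of Tnfaip3 or in those of Traf1, Birc3, Traf2, Map3k14, Tnip2 or Birc2, and nothing is drawn from that absence, since the windows are short. The AP-1 motif TGANTCA was in 1 of the 12 windows, that of Tnfaip3 at -136 to -130, beside 6.75% of all windows. The short cAMP response element motif TGACG was in 4 windows, those of Tnfaip3 (-168 to -164), Traf2 (-237 to -233) and both of Birc2, beside 17.8% of all windows. None of these matches overlapped a match of another motif. A match describes letters, not binding. The shares were not tested, and the 10 genes were chosen as NF-kB regulators, known NF-kB targets among them.

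The comparison of difamilast with vehicle asks what the inhibitor changed in cells given the same cytokines. Of the 10 regulators, 2 rose and none fell in edgeR's quasi-likelihood test, against a background of 3.44% of all genes called (2.21% higher and 1.24% lower). The 2 were Cyld and Map3k14. At an unadjusted p of 0.05, 4 were higher and none lower, and with DESeq2 and with limma-voom 3 were called higher and none lower. The median log2 fold change of the 10 was 0.10, beside 0.00 over all genes, and the difamilast and stimulated libraries did not overlap in 7 of the 10, which held for 24.8% of all genes. Both this comparison and the last use the stimulated libraries. The call of both genes was sensitive to single libraries: none of the 10 passed without stimulated replicate 1, 2 or 3 or without difamilast replicate 2, Cyld alone passed without difamilast replicate 1 or resting replicate 2, and 4 passed without resting replicate 1, when only these 2 groups were fitted and when no gene was filtered for low counts.

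Cyld had 124, 124 and 134 CPM in difamilast libraries, against 91.4, 94.6 and 92.5 CPM in stimulated libraries. It rose 1.37-fold (log2 fold change 0.46 ± 0.09 SE, adjusted p = 0.0107 in edgeR), with all difamilast libraries well above the highest stimulated library. Over 16 alternatives it passed in 12, with an adjusted p of 5.93e-06 to 0.078 and a log2 fold change of 0.38 to 0.48; it missed without difamilast replicate 2 (adjusted p = 0.0514) and without stimulated replicate 1 (0.078), 2 (0.062) or 3 (0.0684). Map3k14 had 46.6, 44.8 and 37.3 CPM in difamilast libraries, against 32.2, 25.5 and 28.9 CPM in stimulated libraries, with difamilast replicate 3 the closest to the stimulated group. It rose 1.49-fold (log2 fold change 0.58 ± 0.15 SE, adjusted p = 0.046), and passed in 10 of 16 alternatives (adjusted p = 0.0035 to 0.264). It missed without difamilast replicate 1 (adjusted p = 0.223) or 2 (0.207), resting replicate 2 (0.0501) and stimulated replicate 1 (0.0838), 2 (0.264) or 3 (0.17).

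Tnfaip3 and Birc3 did not pass, although their groups did not overlap. Tnfaip3 had 1325, 1249 and 1229 CPM in difamilast libraries, against 923, 884 and 1021 CPM in stimulated libraries, 1.34-fold higher on average (log2 scale 0.43 ± 0.13 SE, adjusted p = 0.0879 in edgeR). It passed in 6 of 16 alternatives (adjusted p = 0.000561 to 0.35), which were DESeq2 (0.0333), limma-voom (0.0293), only these 2 groups fitted (0.00245), no filter (0.00544), the length trend removed (0.0435) and resting replicate 1 left out (0.000561). Birc3 had 196, 184 and 194 CPM in difamilast libraries, against 139.9, 148 and 148 CPM in stimulated libraries, 1.32-fold higher on average (log2 scale 0.40 ± 0.13 SE, adjusted p = 0.143). It passed in 3 of 16 alternatives (adjusted p = 0.00136 to 0.408), which were only these 2 groups fitted (0.00302), no filter (0.032) and resting replicate 1 left out (0.00136). In both genes all 3 difamilast libraries were higher than all 3 stimulated libraries.

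The TRAF genes gave no call. Traf1 had 1066, 1099 and 1459 CPM in difamilast libraries, against 1283, 1444 and 1197 CPM in stimulated libraries, and the groups overlapped (log2 fold change -0.11 ± 0.14 SE, adjusted p = 0.775 in edgeR). Difamilast replicate 3 was the highest of all 9 libraries for Traf1 and the other difamilast libraries were under the lowest stimulated library; without replicate 3 the log2 fold change was -0.27. Traf2 had 80.0, 73.2 and 65.8 CPM in difamilast libraries, against 86.4, 77.5 and 79.4 CPM in stimulated libraries (adjusted p = 0.647), and Traf3 had 48.4, 43.7 and 50.5 CPM, against 58.8, 52.5 and 52.7 CPM (adjusted p = 0.562). The libraries overlapped for Traf2 and not for Traf3.

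Tnip1 had 124, 136 and 126 CPM in difamilast libraries, against 133, 132 and 129 CPM in stimulated libraries, with overlapping groups (log2 fold change -0.03 ± 0.11 SE, adjusted p = 0.942 in edgeR). Tnip2 had 7.58, 7.35 and 7.54 CPM in difamilast libraries, against 9.61, 7.87 and 8.79 CPM in stimulated libraries (log2 fold change -0.21 ± 0.15 SE, adjusted p = 0.581). Birc2 had 33.5, 34.0 and 33.0 CPM in difamilast libraries, against 29.97, 27.96 and 27.7 CPM in stimulated libraries (log2 fold change 0.23 ± 0.12 SE, adjusted p = 0.418), narrow groups that did not overlap. Neither Tnip2 nor Birc2 passed in any of 16 alternatives, and a p that misses the threshold does not show that the levels were alike. Among genes averaging at least 10 CPM, the class with the shortest transcripts had a median log2 fold change of -0.31 with difamilast; the members' transcripts are 2022 to 8022 bases long, and the 2 length classes they fall in had medians of 0.02 and 0.04.

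Against resting cells, difamilast cells showed the same directions as stimulated cells, a comparison that shares its libraries with the other 2. All 10 regulators passed, 8 higher and 2 lower, beside 32.8% of all genes called (16.4% higher and 16.4% lower). In CPM with TMM scaling the libraries did not overlap in any of the 10, which held for 42.9% of all genes. Tnfaip3 was 4.11-fold and Traf1 15.1-fold higher with difamilast and the cytokines than at rest, and Birc3 2.69-fold, Map3k14 2.47-fold, Traf2 2.13-fold, Traf3 1.88-fold, Cyld 1.73-fold and Tnip1 1.69-fold. Adjusted p-values of these 8 ran from 6.37e-11 for Traf1 to 0.00015 for Traf3 in edgeR. Tnip2 was 2.02-fold lower (adjusted p = 0.000116). Birc2 was 1.29-fold lower (33.5 ± 0.533 CPM in difamilast and 43.0 ± 6.57 in resting libraries, SD, n = 3 each; adjusted p = 0.0366), a call that was lost in 8 of 16 alternatives (adjusted p = 0.0174 to 0.0993 over all of them). It was lost without resting replicate 1 (0.0678), stimulated replicate 2 (0.0595) or 3 (0.0576) or difamilast replicate 1 (0.0993), 2 (0.0875) or 3 (0.0842), with no filter (0.0667) and with only 2 groups fitted (0.0755).

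Ratios of counts within a library do not depend on how libraries are scaled, and 5 pairs of related regulators were set against each other in this way. Birc3 had 4.67, 5.29 and 5.35 counts per count of Birc2 in stimulated libraries, against 1.79, 1.48 and 1.65 in resting libraries. The ratio of the cIAP genes was 3.11-fold higher with stimulation (log2 ratio 2.35 ± 0.11 in stimulated and 0.71 ± 0.14 in resting libraries, SD, n = 3 each; two-sided exact permutation p = 0.1, the smallest that 3 against 3 libraries can give). Traf1 had 14.8, 18.6 and 15.1 counts per count of Traf2 in stimulated libraries, against 1.85, 2.58 and 2.7 in resting libraries, a ratio 6.87-fold higher (exact p = 0.1). The ratio of Tnip1 to Tnip2 was 3.02-fold and that of Tnfaip3 to Cyld 2.45-fold higher in stimulated than in resting libraries, each without overlap (exact p = 0.1 for each). No value of p under 0.05 can be reached with these group sizes, so the ratios are read by their spread.

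The genes of NIK and of the adaptor that targets it had unequal fold changes. Map3k14 had 0.547, 0.486 and 0.549 counts per count of Traf3 in stimulated libraries, against 0.653, 0.773 and 0.636 in resting libraries, a ratio 1.3-fold lower (exact p = 0.1). With difamilast the ratio was 0.963, 1.03 and 0.739, against the same 0.547, 0.486 and 0.549 in stimulated libraries, 1.71-fold higher (log2 ratio -0.15 ± 0.25 in difamilast and -0.93 ± 0.10 in stimulated libraries, SD, n = 3 each; exact p = 0.1). The lowest difamilast library, replicate 3, lay above the highest stimulated library and inside the range of the resting libraries. Birc3 to Birc2 was 1.12-fold higher with difamilast, at 5.83, 5.41 and 5.9 in difamilast libraries and 4.67, 5.29 and 5.35 in stimulated libraries (exact p = 0.1). The other 3 pairs overlapped between difamilast and stimulated libraries (exact p = 0.9 for Traf1 to Traf2, 0.3 for Tnip1 to Tnip2 and 0.8 for Tnfaip3 to Cyld). These 10 comparisons of ratios form a single family, and none would pass an adjustment over them.

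**Figure D3:**
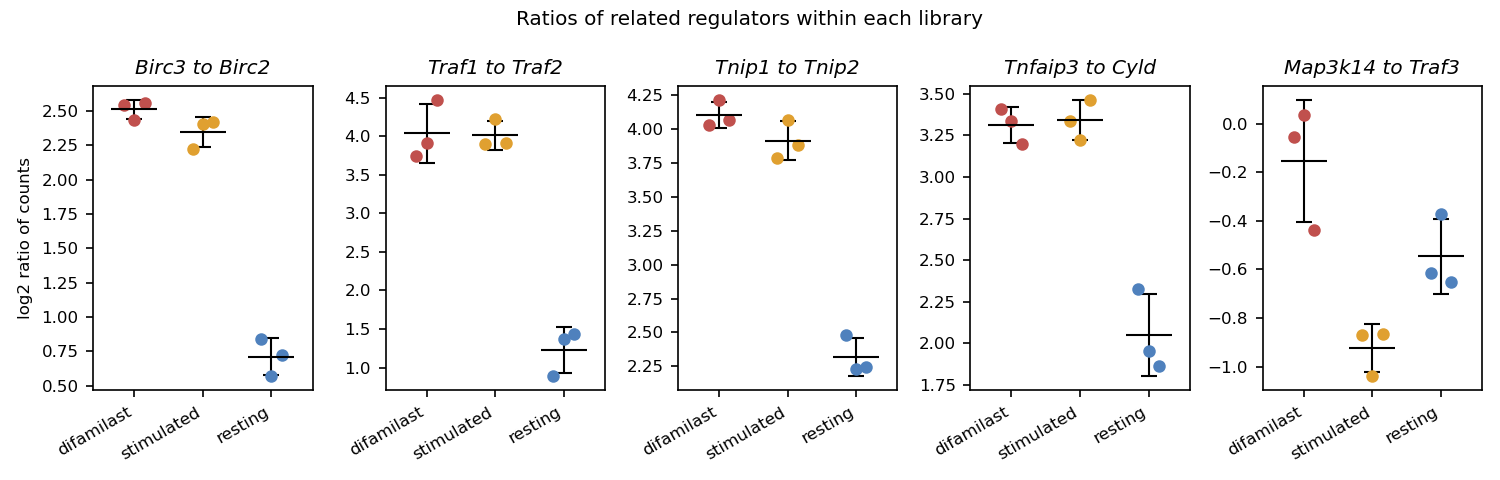
Log2 ratios of counts of 5 pairs of regulators within each library (points; bars and whiskers are means ± SD of 3 libraries), with difamilast, stimulated and resting libraries from left to right; axes do not start at 0. The first 4 pairs are lowest in resting libraries, and Map3k14 to Traf3 is lowest in stimulated libraries, at -0.93 ± 0.10.

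The genes whose profile over the 9 libraries lay closest to those of 4 members were found by the root mean square difference of centred log2 CPM, among 7857 genes averaging at least 10 CPM, leaving out predicted, RIKEN and ribosomal protein genes. Closest to Tnfaip3 were Il4ra, which encodes the IL-4 receptor alpha chain, at a difference of 0.10, the hepatocyte growth factor gene Hgf (0.10) and Ripk2, the adaptor kinase of NOD receptors (0.10), beside a median of 0.94 over all genes. Il4ra had 351 ± 29.9 CPM in difamilast, 245 ± 12.0 in stimulated and 92.1 ± 23.7 in resting libraries (SD, n = 3 each). Closest to Traf1 were the cytokine gene Il9 (0.15), the IL-2 receptor gene Il2ra (0.15) and Fbxl21 (0.18), beside a median of 1.91, and Il9 had 2015 ± 722 CPM in difamilast, 2372 ± 331 in stimulated and 125 ± 15.1 in resting libraries. Closest to Birc3 were Inpp5a, an inositol phosphatase gene (0.08), the transporter gene Abcc1 (0.10) and the ETS factor gene Etv3 (0.11), beside a median of 0.69. Closest to Cyld were Sfmbt1 (0.08), Marf1 (0.08) and Arl5b (0.09), beside a median of 0.43; Marf1 had 297 ± 6.52 CPM in difamilast, 227 ± 5.66 in stimulated and 163 ± 7.94 in resting libraries. These differences are descriptions over 9 libraries that share 3 conditions.

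The other genes of the pathway were taken from 5 lists, and from each the called genes with the smallest p are named, up to 3 per comparison. Their counts stand beside 15.3% of all genes called higher and 16.4% lower with stimulation, and 2.21% higher and 1.24% lower with difamilast. Of 15 relatives of the TRAF, IAP and A20-binding proteins, 6 rose and 4 fell with stimulation, with a median log2 fold change of 0.23. Traf3ip2, the adaptor ACT1 of IL-17 receptors, rose 5.93-fold, Tnip3, the third A20-binding gene, 4.76-fold, and Traf4 3.36-fold. With difamilast 1 of the 15 rose and none fell, near the share of all genes (3 higher and none lower with DESeq2, and 4 higher and 2 lower at an unadjusted p of 0.05 in edgeR). It was Traf4, with 86.7 ± 14.0 CPM in difamilast libraries against 28.7 ± 2.73 CPM in stimulated libraries (SD, n = 3 each), 3.02-fold higher (adjusted p = 3.92e-06 in edgeR), and it passed in all 16 alternatives. The difamilast and stimulated values of Traf4 lay far apart beside their SDs, and resting libraries had 8.58 ± 0.245 CPM.

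Of 22 other ubiquitin enzymes and partners, 11 rose and 2 fell with stimulation, beside 15.3% and 16.4% of all genes. None passed with difamilast in edgeR, DESeq2 or limma-voom, where 3.44% of all genes were called in edgeR, so that a count of 0 among 22 is near the background; at an unadjusted p of 0.05 in edgeR, 3 were lower and none higher with difamilast. Tax1bp1, a ubiquitin-binding partner of A20, had 2138 ± 108 CPM in stimulated libraries against 596 ± 83.3 CPM in resting libraries (SD, n = 3 each), 3.59-fold higher, the ligase gene Peli1 was 2.7-fold and the interferon-inducible protease gene Usp18 3.97-fold higher. Of 27 adaptors and kinases, 13 rose and none fell with stimulation (1 fell with DESeq2 and at an unadjusted p of 0.05 in edgeR, none with limma-voom): the kinase gene Ikbke rose 6.42-fold, Irak3, a brake on IL-1 family signalling, 3.28-fold, and Cflar, which encodes the caspase-8 inhibitor c-FLIP, 2.45-fold. With difamilast 1 of the 27 rose and 2 fell, beside 2.21% and 1.24% of all genes. Ripk2 rose 1.42-fold, Cflar was 1.42-fold and Irak3 1.32-fold lower, with adjusted p-values of 0.0208, 0.00456 and 0.0257 in edgeR. Cflar lost its call without difamilast replicate 2 (0.0559), Ripk2 without difamilast replicate 1 or 2 or any stimulated library (0.075 to 0.129) and Irak3 without those same libraries, without a filter and with the replicate block (0.0568 to 0.206).

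Of 18 receptors that recruit TRAF proteins, 8 rose and 4 fell with stimulation, and the 4 that fell are near the 16.4% of all genes called lower. Tnfrsf9, which signals through TRAF1 and TRAF2, rose 5.75-fold, and the IL-18 receptor genes Il18r1 and Il18rap were 2.74-fold and 2.71-fold lower. With difamilast 3 rose and 1 fell in edgeR (3 higher and 2 lower with DESeq2 and with limma-voom, and 4 higher and 2 lower at an unadjusted p of 0.05 in edgeR). Tnfrsf18, which encodes GITR, rose 1.99-fold, Tnfrsf9 1.61-fold and Tnfrsf13b 1.7-fold. Tnfrsf13b missed when difamilast replicate 1 (adjusted p = 0.0611) or stimulated replicate 2 (0.0579) was left out. The gene that fell in edgeR, named after its value was seen, was Cd40, 1.67-fold lower (adjusted p = 0.0169 in edgeR), a call that was not followed in the alternatives. Of 11 NF-kB subunits and inhibitors, 10 rose and none fell with stimulation, in DESeq2 and limma-voom and at an unadjusted p of 0.05 as well, with a median log2 fold change of 1.58. Nfkbia, Bcl3 and Nfkbiz rose 5.97-fold, 6.81-fold and 5.53-fold. With difamilast 3 rose and 1 fell in edgeR (3 higher and 2 lower with DESeq2 and with limma-voom, and 4 higher and 2 lower at an unadjusted p of 0.05 in edgeR). The inhibitor gene Nfkbie rose 1.81-fold, Nfkb1 1.45-fold, Nfkbiz, named after its value was seen, 1.33-fold, and Nfkbid was 1.64-fold lower. Nfkbia, also given after its value was seen, did not pass with difamilast (log2 fold change -0.34 ± 0.09 SE, adjusted p = 0.0612 in edgeR). Nfkb1 missed without stimulated replicate 1 (adjusted p = 0.0542 in edgeR) or 2 (0.0506), and the call of Nfkbiz with difamilast was not followed in the alternatives. Nfkb2 and Relb, the subunits that NIK controls and which are named after their values were seen, rose with stimulation (log2 fold changes 2.11 ± 0.14 and 1.55 ± 0.13 SE) and had values of 0.25 ± 0.14 and 0.01 ± 0.12 with difamilast (adjusted p = 0.438 and 0.985).

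**Figure D4:**
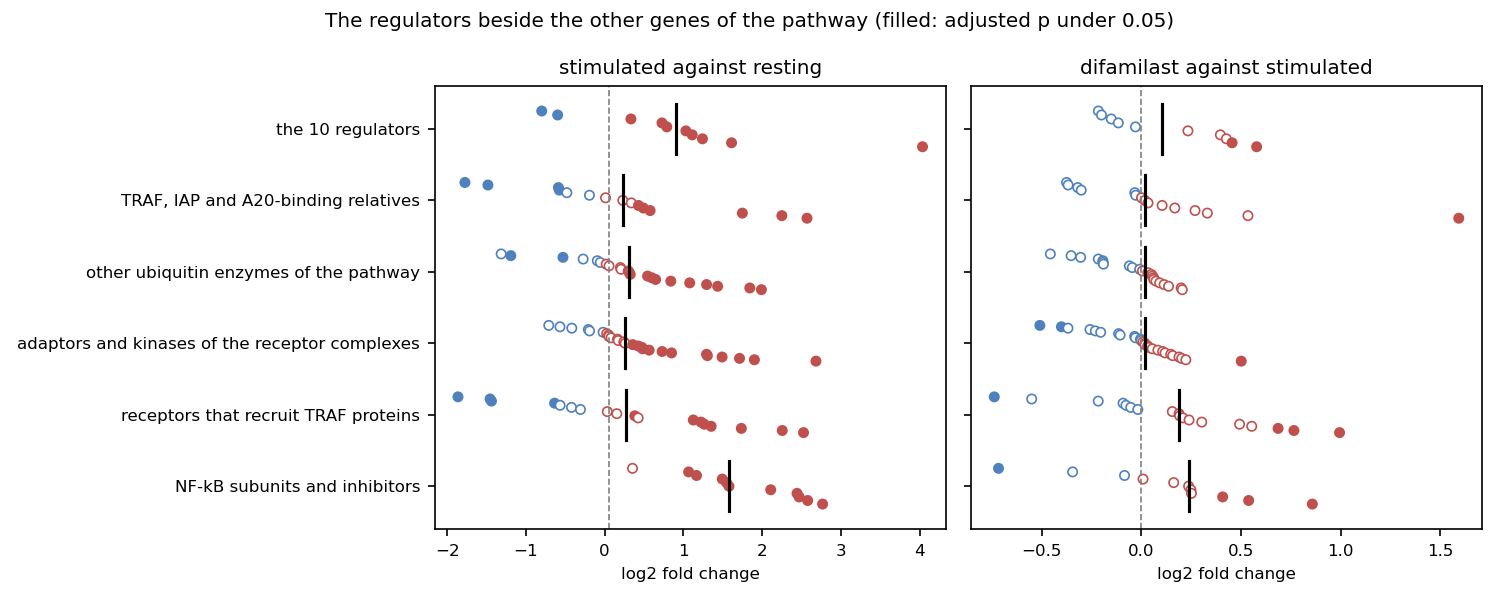
Log2 fold changes of the 10 regulators and of the genes of 5 pathway lists, with stimulation (to resting) and with difamilast (to stimulated); each point is a gene, filled where the adjusted p was under 0.05, black bars are list medians and the dashed line is the median of all 21341 genes. With stimulation the NF-kB subunits and inhibitors have a median of 1.58 and the regulators 0.91, and with difamilast the highest point is Traf4 at 1.59.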

How the data were processed

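The deposited values are raw read counts per gene symbol for 9 libraries, in a single table. The labels' protocols describe capture of poly(A) RNA on oligo-dT beads, then whole-transcriptome amplification by TAS-Seq and fragmentation; yield may therefore vary with transcript length, and as no molecular identifiers are mentioned, a count may be an amplification copy. Cutadapt 4.1, Bowtie2 2.4.5 and GRCm38 stand in the submitters' processing notes without their roles. What counted the reads, with which annotation and strand setting, is not given in the sources used here. GENCODE vM21 (GRCm38) gave positions and lengths for 34336 symbols.

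Groups came from sample titles. Counts of all 9 libraries were fitted with edgeR 4.0.16 (R 4.3.3; TMM scaling, filterByExpr with a minimum count of 10 and a minimum total of 15, robust quasi-likelihood, no covariate), and a gene is called at a Benjamini-Hochberg adjusted p of 0.05 over 21341 genes. SE is the log2 fold change divided by the root of the test statistic. The common biological coefficient of variation was 0.156. Members, lists, tests and alternatives were chosen with earlier results of these data known. Named genes are the 10 members, up to 3 called genes with the smallest p per list and comparison, and the 3 closest profiles to 4 members. Cd40, Nfkb2, Relb and, with difamilast, Nfkbiz and Nfkbia fall outside this rule and were named after their values were seen. Alternatives were DESeq2 1.42.0, limma-voom (limma 3.58.1), RLE scaling, no filter, fitting only the 2 groups of a comparison, a block for the replicate number, correction for transcript length (lowess with span 0.3 on log2 CPM with prior count 2), and each library left out in turn. Every pair of libraries within a group differed beyond sampling noise (chi-square per degree of freedom 4.28 to 43.3). Protein sequences were not used here.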

Additional observations from a re-analysis of the deposited data

How the results depend on the processing

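Of the 10 regulators, 9 or 10 were called for stimulated against resting cells in all 16 alternatives (9 to 10 when leaving out a library), and the gene lost was Cyld; for difamilast against resting cells 9 or 10 were called, and the gene lost was Birc2. For difamilast against stimulated cells the count of 2 became 4 with no filter and 4 with only those groups fitted, and ran from 0 to 4 when each library was left out, all of them higher. Over all genes that comparison gave 735 calls, 1115 with DESeq2, 1351 with no filter, 1673 with only those groups fitted and 347 to 1693 when each library was left out, and the share of higher calls ran from 47.5% (without difamilast replicate 3) to 74.4% (without difamilast replicate 2), beside 64.1%; the cause was not tested. The log2 fold change of Tnip1 for difamilast against stimulated cells ran from -0.0705 to 0.00708 when each library was left out, and changed sign without difamilast replicate 1. Of the ratios, Traf1 to Traf2 and Tnfaip3 to Cyld changed sign in 4 and 3 of 8 alternatives for difamilast against stimulated cells, within ranges of -0.19 to 0.18 and -0.09 to 0.04, and the other 8 kept their sign. With RLE scaling the regulators gave the same counts, and no fit without scaling factors was run.

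Whether the replicate numbers pair the libraries was not settled. Correlations of same-numbered libraries' deviations from their group means ran from -0.40 to 0.42, and those of differently numbered libraries from -0.53 to 0.59. Deviations from a mean of 3 libraries are tied to each other, so these correlations cannot exclude a pairing. With the replicate block the regulators called were 10, 2 and 10 for the 3 comparisons, and all genes called for difamilast against stimulated cells were 700.0. Tnip2 had the lowest counts of the regulators, 101 to 271 per library, except in resting replicate 3, where Map3k14 had 110 and Tnip2 127.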
